A study of Mus musculus with 6 samples.

Results

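Potassium channel genes are named Kcn, a letter or letters for the subfamily, and a number. All protein-coding mouse genes with such a symbol were taken from the count table of a 10HDA experiment, which gave 92 genes among the 43346 genes listed. The symbol chose them, and no measured value entered the rule, although the set was proposed with earlier results of these data known. The experiment asked how 10HDA (10-hydroxy-2-decenoic acid, an estrogenic fatty acid of royal jelly) changes gene expression in primary cortical cell cultures. There were 6 libraries. Cultures 1, 3 and 4 each gave 1 library treated with vehicle (DMSO, spelled DSMO in the labels) and 1 treated with 1 mM 10HDA. For both treatments the labels give the strain Cyp19-EGFP, the genotype SRY+ (male) and an age of gestational day 15.5, whereas the methods text gives C57BL/6 as the source of the embryos. The cultures are mixed cortical cells, so fewer cells of a type and less RNA per cell cannot be told apart.

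The libraries held 9144736 to 13367194 counts on genes. Uty, Kdm5d, Eif2s3y and Ddx3y, genes of the Y chromosome, summed to 8.89 and 9.21 CPM in the libraries of culture 1 and to 95.2 to 132 CPM in the other 4. CPM is the count scaled to a common library total, here after TMM scaling, which corrects for differences in composition. Culture 1 thus went against its male label, and results are also given without it. Markers of neurons summed to 8505 to 9045 CPM with vehicle and 7244 to 8126 with 10HDA, and those of microglia to at most 1.22 CPM in any library.

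Potassium channels let potassium leave the cell and so bring the membrane back towards rest. Voltage-gated channels are rings of pore subunits that open when the cell depolarises. Kcnq3 and Kcnq5 are subunits of the M-channel, a slow current near the firing threshold that muscarinic receptors switch off and that restrains repetitive firing. Silent subunits make no channel alone but join Kcnb subunits and change their gating, and auxiliary subunits bind to pores from outside or inside the membrane. Inward rectifiers and leak channels set the resting potential, and in glia take up potassium released by neurons.

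The pore carries a selectivity filter, the stretch that strips water from potassium, which in many of these channels reads Thr, any residue, Gly, Tyr or Phe, and Gly. This motif was found in the coding transcript of 66 of the 92 genes, in 23 of 30 voltage-gated pores, 10 of 10 silent subunits, 5 of 8 calcium- or sodium-activated pores, 14 of 15 inward rectifiers and 0 of 15 auxiliary subunits. Pore genes without these letters included most Kcnh genes and Kcnn1, Kcnn2 and Kcnn3. Of 14 two-pore channel genes, all held it and 11 held it at 2 places.

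Reads are 50 bases long, and over the whole gene 13 of 14656 windows of that length in Kcnq3 occurred in another gene, none of them in another potassium channel gene. Kcng1 had 0 such windows. Of the 67 genes tested, 15 shared a window with another potassium channel gene.

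Of the 92 genes, 67 had at least 1 CPM in at least 3 libraries and were tested, and none was kept through 1 treatment only. The cultures therefore held transcripts of most subfamilies. Among the other 25 genes, Kcne1, Kcnmb1 and Kcnk16 had 0 counts in all 6 libraries, where 3 counts would correspond to 0.224 to 0.328 CPM, and the highest value of any was 1.32 CPM. None of the 4 Kcne genes, small membrane proteins that modify voltage-gated channels, reached the limit. The symbol rule leaves out their relative Kcne1l, which measured 8.32 ± 0.43 CPM in vehicle and 7.46 ± 1.17 CPM in 10HDA libraries (SD, n = 3 each). The gene tested with the lowest level was Kcnk13, a leak channel, at 0.931 ± 0.234 CPM in vehicle and 0.986 ± 0.236 CPM in 10HDA libraries (SD, n = 3 each). Just outside was Kcns3, a silent subunit, at 0.904 ± 0.0062 and 1.13 ± 0.311 CPM.

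Levels were compared between genes as RPKM, the CPM divided by the gene length in kilobases that the deposited table gives. In vehicle libraries the 92 genes summed to 320 ± 26.3 RPKM, and in 10HDA libraries to 290.3 ± 9.31, with ranges that overlapped. Voltage-gated pore subunits made up 47.9% of the vehicle sum, two-pore leak channels 13.5%, auxiliary subunits 12.5%, inward rectifiers 9.97%, silent subunits 8.9% and calcium- or sodium-activated pores 7.22%. The subfamilies Kcnk and Kcnq were highest, at 43.2 ± 3.54 and 43.2 ± 6 RPKM with vehicle. The silent subunits summed to 27.1, 28.9 and 29.5 RPKM with vehicle in cultures 1, 3 and 4, and to 23.4, 23.2 and 23.2 with 10HDA. That sum was lower in each 10HDA library than in any vehicle library. Within it Kcng1 went from 8.85 ± 0.982 to 5.37 ± 0.616 RPKM, and Kcns1 from 2.48 ± 0.156 to 2.91 ± 0.32 (SD, n = 3 each). The sums of the Kcnh and Kcnn subfamilies, outside the silent subunits, were also lower without overlap (24 ± 0.996 to 20.7 ± 1.29 and 7.56 ± 0.795 to 6.04 ± 0.204 RPKM). Sums of the other roles, and of the other subfamilies outside the silent subunits, overlapped between treatments. Of all single genes tested, 13.8% did not overlap.

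**Figure D1:**
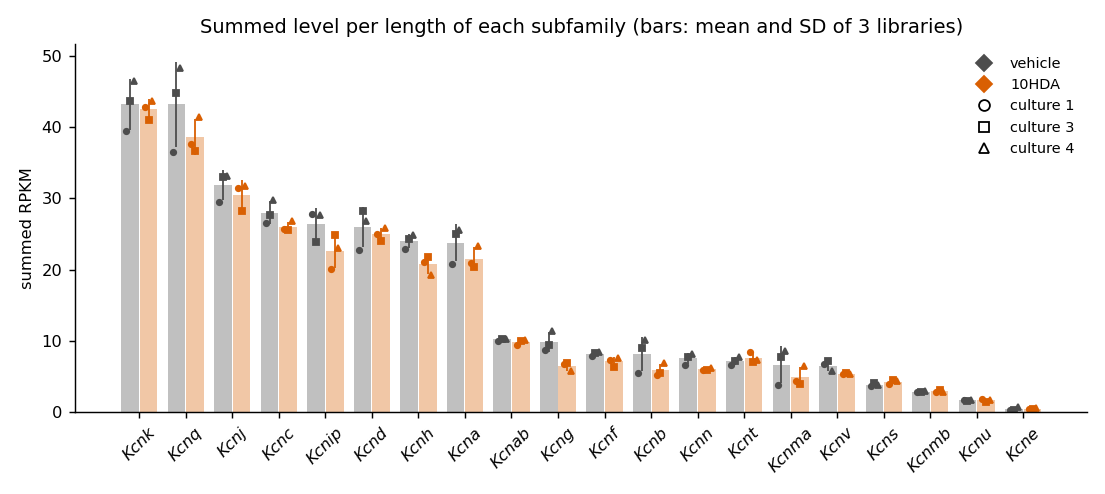
Summed level per length (RPKM) of each potassium channel subfamily, with bars for the mean and lines for the SD of 3 libraries per treatment and a symbol for each culture. Kcnk and Kcnq stand highest at 43.2 RPKM each with vehicle, and Kcne lowest at 0.508, without Kcne1l, which the symbol rule leaves out.

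Among the most abundant genes per length was Kcnip3 (15.6 ± 1.66 RPKM with vehicle, SD, n = 3), a calcium-binding partner of Kcnd channels. Below it came Kcnd3 (13.2 ± 1.55), the pore of an A-type current that inactivates fast, and Kcna6 (11.9 ± 0.317), a delayed rectifier. The SDs of Kcnip3 and Kcnd3 overlapped, as did those of Kcnd3 and Kcna6. For Kcna6, 38.8% of its windows of 50 bases also occur in Gm26673, which overlaps it on the opposite strand, so its level is uncertain. Kcnq3, at 7.7 ± 1.46 RPKM, was level within the SDs with Kcnj4 (7.89 ± 0.182), an inward rectifier, and Kcnk2 (7.56 ± 0.328), a leak channel that responds to stretch.

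Against vehicle, 10HDA lowered 2 of the 67 genes, Kcnq3 and Kcng1, and raised none, at an adjusted p under 0.1 in the quasi-likelihood test of edgeR over all 15311 genes tested. Of all genes tested, 0.509% passed, with 0.327% lower and 0.183% higher. In this fit 46 of the 67 genes had a fold change below 0 and 21 above, and the median log2 fold change was -0.10 (range -0.89 to 0.65). Over all genes the median was 0.01, and 47.4% were below 0. Scaled by library size only, 39 genes were below 0 and the median was -0.04, against 0.07 over all genes, of which 35.4% were below 0. At an unadjusted p under 0.05, 12 genes were lower and 2 higher, where 10.4% of all genes passed (4.87% lower and 5.55% higher).

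With culture as a block, 12 genes passed, 10 of them lower and 2 higher, where 7.5% of all genes passed (3.58% lower and 3.92% higher). The lower genes included Kcnq3, Kcng1, Kcnab1, Kcnn2, Kcnj10, Kcnb2, Kcnc4, Kcnh3 and Kcnip3. Both genes that were higher, Kcnab3 and Kcnj2, lie outside the voltage-gated pores. Without culture 1, the blocked fit passed 12 genes, all lower (background 6.51%, with 4% lower and 2.51% higher). That fit called Kcna1, Kcna2, Kcnn3 and Kcnma1 in addition, and no longer called Kcnc4, Kcnip3, Kcnab3 and Kcnj2. It has 1 residual degree of freedom. The unblocked fit without culture 1 called 0 of the 67 genes and 0 of all 15311. At an unadjusted p under 0.05 in edgeR, that unblocked fit had 11 of the 67 genes, against 1043 of all 15311.

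The cultures did not move alike. The median over the 67 genes of the log2 ratio of the 10HDA to the vehicle library was 0.05 in culture 1, -0.21 in culture 3 and -0.14 in culture 4, against 0.03, 0.01 and 0.01 over all genes. In the library values, 19 genes were lower with 10HDA in 3 of 3 cultures, where 17.4% of all genes were, and 8 were higher in 3 of 3, where 21.5% were. The treatments did not overlap for 11 genes that were lower, against 6.47% of all genes, and for 4 that were higher, against 7.3%, a total of 15 against 13.8%.

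**Figure D2:**
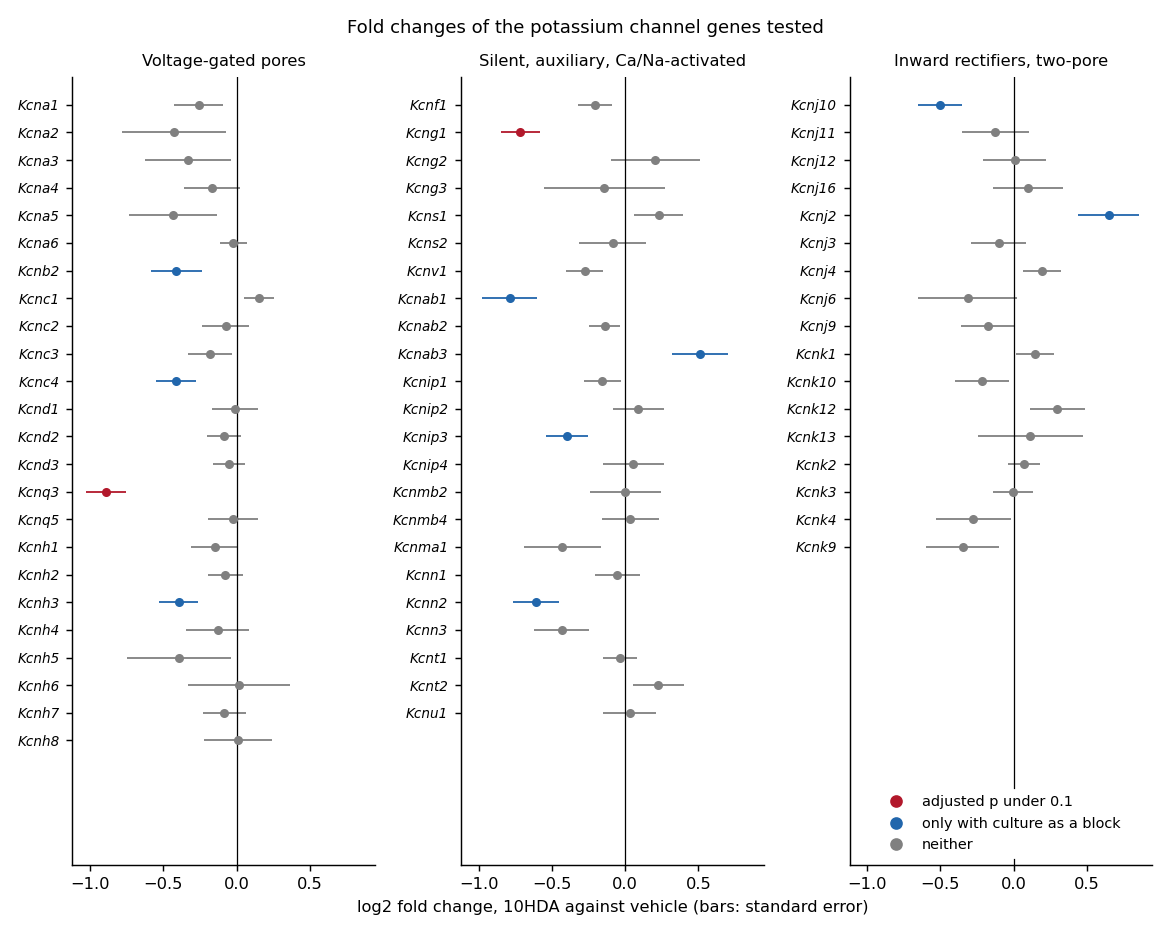
Log2 fold change of 10HDA against vehicle for potassium channel genes tested, by role, with standard errors as bars. Kcnq3 (-0.89) and Kcng1 (-0.72) are in red as past an adjusted p of 0.1. The genes past it only with culture as a block are in blue, and the remaining genes are in grey. Some grey genes lie as far from 0 as blue ones (Kcna5 at -0.43, Kcnc4 in blue at -0.41).

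Among voltage-gated pore subunits, 27 of 30 genes were tested, 23 below 0 and 4 above, with a median log2 fold change of -0.13. With library size alone 19 were below 0. Of the 27, 1 fell without the block (Kcnq3) and 5 with it, where 0.327% and 3.58% of all genes tested fell. Their median was 0.05 in culture 1, -0.29 in culture 3 and -0.16 in culture 4.

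Kcnq3 (ENSMUSG00000056258.8, chr15:65986387-66286642, minus strand), a subunit of the M-channel, had the largest fold change of the 67 genes. It measured 86.1, 125 and 119 CPM with vehicle in cultures 1, 3 and 4, and 56.6, 61.1 and 60.4 CPM with 10HDA. The lowest vehicle library, that of culture 1, was still above the highest 10HDA library. The mean ± SD over 3 libraries was 110.0 ± 20.9 CPM in the vehicle libraries and 59.4 ± 2.38 CPM in the 10HDA libraries. The fitted log2 fold change was -0.89, with a standard error of 0.135 and an adjusted p of 0.03 from edgeR. With culture as a block the adjusted p was 1.6e-05 from the same tool. By culture the log2 ratio was -0.60 in culture 1, -1.03 in culture 3 and -0.98 in culture 4.

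The call of Kcnq3 without the block was lost when some single libraries were left out. With any single library left out, the log2 fold change of Kcnq3 was -1.04 to -0.79 and the unadjusted p in edgeR 0.00026 or lower. Its adjusted p in edgeR was 0.137 without the vehicle library of culture 3, 0.137 without that of culture 4, and 0.207 without the 10HDA library of culture 1. Without both libraries of culture 1 the log2 fold change was -1.01. The p in edgeR was then 1.0e-05 unadjusted and 0.109 adjusted, in a fit where 0 of all genes passed. With the block the adjusted p without culture 1 was 5.2e-08 in edgeR, from a fit with 1 residual degree of freedom. Without culture 3 the log2 fold change was -0.83, with an adjusted p of 0.279 in edgeR (unblocked).

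Kcnq5, another M-channel subunit, did not pass with or without the block. It measured 60, 68.4 and 86.6 CPM with vehicle and 68.6, 56 and 87.3 CPM with 10HDA. The treatments overlapped, and its fold change near 0 changed sign with library size alone (-0.03 and 0.04). Kcnq1, the heart and epithelial member of the subfamily, had 0 to 3 counts per library and was not tested.

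Levels of Kcnq3 and Kcnq5 were also compared inside each library, a ratio chosen after their values were seen and so given without a test. Per 100 RPKM of Kcnq5, Kcnq3 had 77.2, 98.2 and 74.1 RPKM with vehicle in cultures 1, 3 and 4, and 44.4, 58.7 and 37.2 RPKM with 10HDA. The treatments did not overlap, and the mean ratio was 83.2 ± 13.1 against 46.8 ± 10.9 (SD, n = 3 each). As a share of the summed RPKM of the 92 genes, Kcnq3 had 2.4% ± 0.306 with vehicle and 1.43% ± 0.0685 with 10HDA.

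**Figure D3:**
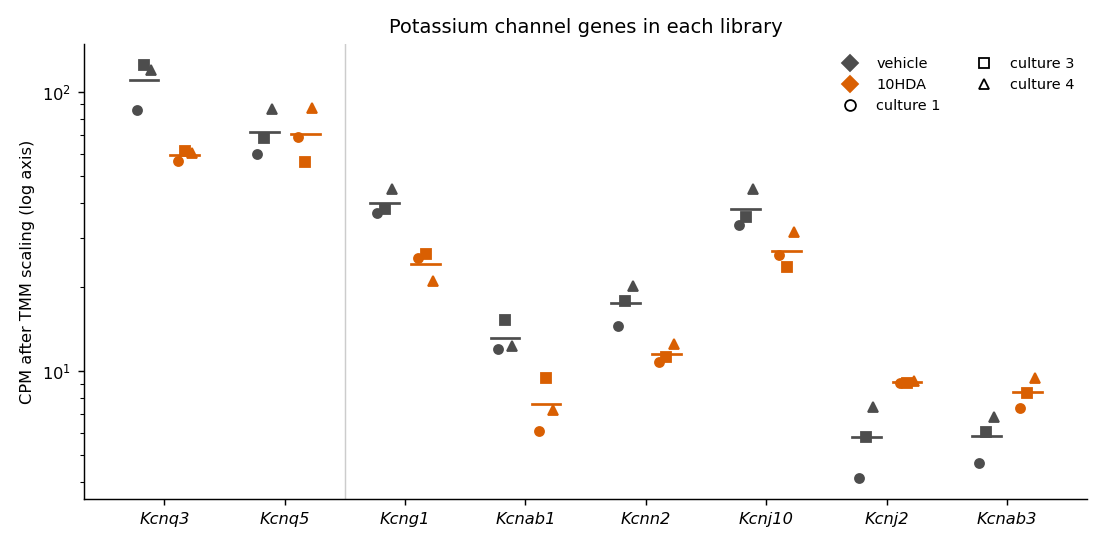
CPM of potassium channel genes in each of the 6 libraries on a log axis, with lines at the mean of 3 libraries and a symbol for each culture. Left of the divider, the treatments overlap for Kcnq5 and not for Kcnq3, and right of it Kcng1, Kcnab1, Kcnn2 and Kcnj10 are lower and Kcnj2 and Kcnab3 higher with 10HDA, without overlap.

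Kcnb2 forms delayed rectifier channels and is a partner of the silent subunits. It measured 18.6, 28.1 and 29.1 CPM with vehicle and 18.2, 17.6 and 21.5 CPM with 10HDA. The libraries of culture 1 were close together and those of cultures 3 and 4 apart, so that the treatments overlapped. The log2 fold change was -0.41, and it fell with the block (adjusted p = 0.0825 from edgeR) but not without it (0.436 from edgeR).

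Kcnc4, a fast-inactivating Kv3 pore, and Kcnh3, a pore of the ether-a-go-go group, were also lower only with the block. Kcnc4 measured 25.1, 21.3 and 21.4 CPM with vehicle and 17.1, 15.3 and 18.6 with 10HDA, without overlap (log2 fold change -0.41, adjusted p = 0.323 and, blocked, 0.0567 from edgeR). Kcnh3 measured 36.3, 31.5 and 33.7 CPM with vehicle and 28.2, 27.3 and 21.4 with 10HDA, again without overlap (log2 fold change -0.40, adjusted p = 0.329 and, blocked, 0.0492 from edgeR). Kcnc1, the Kv3 pore of fast-spiking neurons, lay on the other side, with each 10HDA library (88.9 to 99.1 CPM) above each vehicle library (77 to 87 CPM), and did not pass (log2 fold change 0.15, adjusted p = 0.617 from edgeR).

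All 6 of the Kcna genes tested, pores of the Shaker-related group, had fold changes below 0, with a median of -0.30, and none passed with or without the block. Kcna1 and Kcna2 passed in the blocked fit without culture 1 (adjusted p = 0.0921 and 0.053 from edgeR), which has 1 residual degree of freedom. Kcna6 was above 0 (0.04) with library size alone. The Kcnd genes, pores of the A-type current, were near 0, with a median of -0.05, and 2 of 3 were above 0 with library size alone.

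The silent subunits had 7 of 10 genes tested, 5 below 0 and 2 above, with a median log2 fold change of -0.14. One of them fell. Kcng1 (ENSMUSG00000074575.4, chr2:168260117-168281736, minus strand), which joins Kcnb pores, measured 36.6, 38.1 and 44.9 CPM with vehicle and 25.5, 26.2 and 21 CPM with 10HDA. The highest 10HDA library was below the lowest vehicle library. The mean ± SD over 3 libraries was 39.9 ± 4.43 CPM in the vehicle libraries and 24.2 ± 2.78 CPM in the 10HDA libraries. The fitted log2 fold change was -0.72, with a standard error of 0.132 (adjusted p = 0.0541 and, with the block, 0.00097 from edgeR).

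The call of Kcng1 without the block was lost in 7 alternatives, with library size alone (adjusted p = 0.101 from edgeR), without the vehicle library of culture 3 (0.16) or 4 (0.263), without the 10HDA library of culture 1 (0.344), and without culture 1 (0.3), 3 (0.279) or 4 (0.147). Its direction was the same in each, and by culture the log2 ratio was -0.52, -0.54 and -1.09. In the blocked fit without culture 1, with 1 residual degree of freedom, the adjusted p was 0.00024 from edgeR. The silent subunits Kcnf1 and Kcnv1 were also lower in each 10HDA library than in any vehicle library, with log2 fold changes of -0.21 and -0.28, and did not pass (adjusted p = 0.545 and 0.467 from edgeR, and 0.302 and 0.188 blocked).

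**Figure D4:**
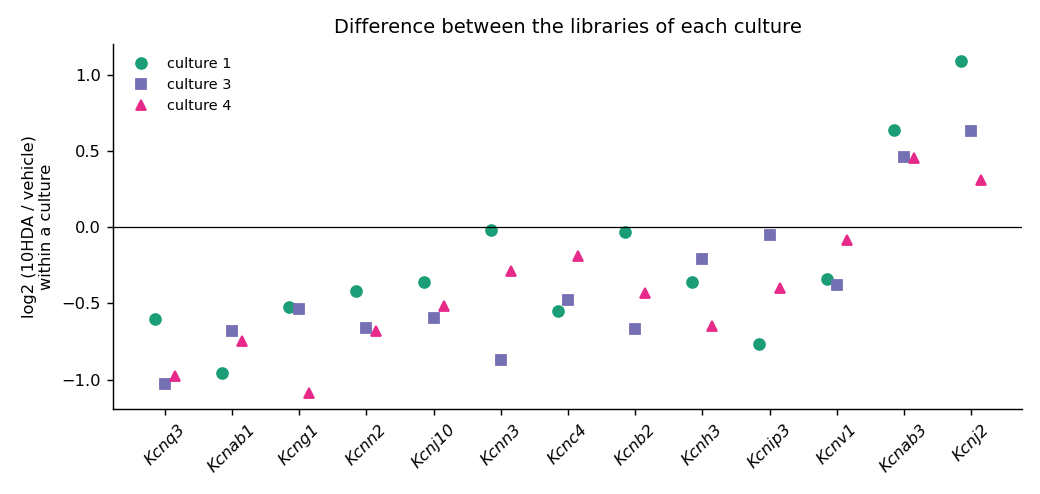
Log2 ratio of the 10HDA to the vehicle library within each culture for genes with an unadjusted p under 0.05. Kcnq3 lies between -0.60 and -1.03 and Kcng1 between -0.52 and -1.09, while Kcnb2 and Kcnn3 sit near 0 in culture 1.

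Auxiliary subunits were split, with 4 of 9 genes tested below 0 and 5 above, and a median log2 fold change of 0.00. The Kcnab genes encode cytoplasmic beta subunits of Kcna channels. Kcnab1, which gives those channels fast inactivation, measured 11.9, 15.2 and 12.3 CPM with vehicle and 6.08, 9.45 and 7.23 CPM with 10HDA. The treatments did not overlap, and after Kcnq3 it had the second largest fold change below 0 (log2 fold change -0.79, standard error 0.188, adjusted p = 0.158 from edgeR). It fell with the block (adjusted p = 0.0025 from edgeR), and 201 bases of its exons overlap A330015K06Rik on the opposite strand.

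Kcnab3 moved the other way. It measured 4.67, 6.03 and 6.87 CPM with vehicle and 7.38, 8.36 and 9.43 CPM with 10HDA. Each 10HDA library was above every vehicle library, and the gene rose with the block (log2 fold change 0.52, adjusted p = 0.0765 from edgeR) but not without it (0.51, adjusted p = 0.38 from edgeR). Blocked and without culture 1 its adjusted p was 0.224 from edgeR. The antisense gene Kcnab3os overlaps 147 of its exon bases.

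Kcnip3 encodes a calcium-binding protein that attaches to Kcnd pores and is also known as a repressor of transcription. It measured 56.8, 48.6 and 60.1 CPM with vehicle and 33.4, 47 and 45.5 CPM with 10HDA, without overlap. The libraries of culture 3 were close together, at a log2 ratio of -0.05, against -0.77 in culture 1 and -0.40 in culture 4. It fell with the block (log2 fold change -0.40, adjusted p = 0.0552 from edgeR) but not without it (adjusted p = 0.359 from edgeR), nor with the block once culture 1 was left out (0.383). Kcnab2, another beta subunit, was a little lower in each 10HDA library (33.1 to 34.6 CPM) than in any vehicle library (36 to 39.1 CPM) and did not pass (adjusted p = 0.665 from edgeR).

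Of 7 calcium- or sodium-activated pores tested, 5 had fold changes below 0, 3 with library size alone, and the median was -0.05. Kcnn2, a small-conductance channel that shapes the pause after a spike, measured 14.5, 17.8 and 20.2 CPM with vehicle and 10.8, 11.2 and 12.5 CPM with 10HDA. The treatments did not overlap, and the log2 fold change was -0.61 with a standard error of 0.157 (adjusted p = 0.195 and, blocked, 0.0107 from edgeR). Its value is less certain than those of Kcnq3 and Kcng1, since 515 of its 7550 windows of 50 bases (6.82%) occur in other genes, 276 of them in AC121957.1, which overlaps it on the opposite strand.

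Kcnn3, of the same small-conductance group, measured 13.3, 22.4 and 18.8 CPM with vehicle and 13.1, 12.1 and 15.3 with 10HDA. The ranges overlapped through culture 1, where the libraries were alike, and it passed only in the blocked fit without culture 1 (adjusted p = 0.0244 from edgeR, against 0.116 with that culture). Kcnma1, the large-conductance calcium-activated pore, measured 24.5, 50.5 and 55.9 CPM with vehicle and 29, 26.3 and 42.8 CPM with 10HDA. Its 10HDA library was higher in culture 1 and lower in cultures 3 and 4, so the groups overlapped (log2 fold change -0.43, adjusted p = 0.587 and, blocked, 0.142 from edgeR). Without culture 1 the blocked fit gave an adjusted p of 0.0014 from edgeR, with 1 residual degree of freedom. Of the 17759 windows of 50 bases in Kcnma1, 967 occur in 4930519K11Rik, which overlaps it on the opposite strand. Its value is thus also less certain. Kcnn1, Kcnt1, the sodium-activated pore, and Kcnu1 had fold changes of -0.05, -0.03 and 0.03.

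Inward rectifiers had 5 of 9 genes tested below 0 and 4 above, with a median log2 fold change of -0.10. Kcnj10 encodes the channel by which astrocytes take up potassium. It measured 33.4, 35.7 and 44.9 CPM with vehicle and 26, 23.6 and 31.4 CPM with 10HDA. The treatments did not overlap, and it fell with the block (log2 fold change -0.50, adjusted p = 0.0098 from edgeR) but not without it (adjusted p = 0.276 from edgeR).

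Astrocyte markers moved with Kcnj10. Of 10 such markers tested, 9 were below 0, with a median log2 fold change of -0.61, and 4 fell without the block and 6 with it, where 0.327% and 3.58% of all genes tested fell. They summed to 1271 to 1537 CPM with vehicle and 972 to 1174 with 10HDA. Gfap, the astrocyte filament protein, went from 82.4 ± 18.5 to 34.2 ± 9.08 CPM (SD, n = 3 each). Per 1000 CPM of these markers, Kcnj10 had 26.3, 26.2 and 29.2 CPM with vehicle and 26.7, 22.5 and 26.7 with 10HDA. These ratios overlapped between treatments. The sum of markers is weighted towards the most abundant ones, Slc1a3 and Slc1a2 (464 and 329 CPM with vehicle). Their log2 fold changes were -0.21 and -0.19, smaller than the median change of the list, and neither was called with or without the block. Per 1000 CPM of neuron markers, Kcnj10 had 3.928, 4.117 and 4.968 CPM with vehicle and 3.445, 3.252 and 3.858 with 10HDA, without overlap. The part of cell type markers in the values of Kcnj10 was not tested further.

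Kcnj2, a strong inward rectifier that holds cells near rest, measured 4.13, 5.8 and 7.45 CPM with vehicle and 9.04, 9.09 and 9.21 CPM with 10HDA. Each 10HDA library was above every vehicle library, by a log2 ratio of 1.09 in culture 1, 0.63 in culture 3 and 0.31 in culture 4. It rose with the block (log2 fold change 0.67, adjusted p = 0.0308 from edgeR), but not without it (0.65, adjusted p = 0.305 from edgeR), nor with the block once culture 1 was left out (0.203). Kcnj4, its relative among the strong rectifiers, was also higher in each 10HDA library (18 to 20.5 CPM against 16.5 to 17.3 CPM) and did not pass (adjusted p = 0.612 from edgeR).

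Two-pore leak channels were evenly split, with 4 of 8 genes tested below 0 and 4 above and a median log2 fold change of 0.03. None passed either test. Kcnk1, the most abundant of them over all 6 libraries, was at 9.21 ± 0.892 RPKM in vehicle and 10.2 ± 0.768 RPKM in 10HDA libraries (SD, n = 3 each, log2 fold change 0.15, adjusted p = 0.713 from edgeR). The fold changes of the group ran from -0.35 to 0.30.

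Proteins that bind, anchor or regulate these channels gave a related list of 28 genes tested, 21 below 0 and 7 above, with a median log2 fold change of -0.14. None passed without the block, and 5 fell with it, Dpp6, Dpp10, Ank2, Calm2 and Calm3, where 3.58% of all genes tested fell. Dpp6, a membrane protein that speeds Kcnd channels, went from 172 ± 11.8 to 130 ± 8.31 CPM (SD, n = 3 each, blocked adjusted p = 0.0116 from edgeR). Calm2 and Calm3 encode calmodulin, which Kcnq and Kcnn channels carry as a calcium sensor, and had log2 fold changes of -0.29 and -0.31 (blocked adjusted p = 0.0746 and 0.0778 from edgeR). Ank3, whose product ankyrin-G holds Kcnq3 at the start of the axon, was at -0.29 and did not pass (adjusted p = 0.612 and, blocked, 0.194 from edgeR). Genes of potassium pumps and cotransporters were split, with 8 of 15 below 0 and a median of -0.02, and 1 of them, the pump subunit Atp1b1, fell with the block (log2 fold change -0.29, adjusted p = 0.0685 from edgeR). That is 6.67% of the list, against 7.5% of all genes called with the block.

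Markers of other cells also differed between treatments. Of 12 neuron markers tested, 11 were below 0, with a median log2 fold change of -0.20. The median was -0.15 for 10 excitatory neuron markers and -0.26 for 12 interneuron markers. With the block 3 neuron, 2 excitatory neuron and 5 interneuron markers fell and 0 rose, where 3.58% of all genes tested fell. Without the block 1 of them fell, the interneuron marker Reln (log2 fold change -0.63, adjusted p = 0.0421 from edgeR), where 0.327% of all genes did. Markers of intermediate progenitors lay above 0 in 5 of 5 genes, with a median of 0.50. Of 9 oligodendrocyte lineage markers, 6 were below 0, with a median of -0.05, and Pdgfra, Cspg4 and Sox10 fell with the block, at log2 fold changes without it of -1.19, -0.91 and -1.43. Endothelial and pericyte markers summed to 34 to 38.9 CPM with vehicle and 17.1 to 22.6 with 10HDA. Nearly all of this sum was Pdgfrb and Cspg4, the latter also an oligodendrocyte lineage marker, while the endothelial genes Cldn5, Flt1 and Tek averaged 0.0299, 0.3 and 0.108 CPM with vehicle. Meningeal fibroblast markers summed to 91.7 to 149 CPM with vehicle and 33 to 72.9 with 10HDA. Most of this sum was Pdgfra, shared with the oligodendrocyte list (107 ± 29.6 and 46.6 ± 20.1 CPM, SD, n = 3 each). Dcn, also of this list, went from 8.96 ± 0.244 to 4.42 ± 0.413 CPM (SD, n = 3 each). It fell with and without the block (log2 fold change -1.02, adjusted p = 0.0421 and, blocked, 0.00096 from edgeR). The fibroblast collagen Col1a1, near the limit at 1.06 CPM with vehicle, had a log2 fold change of -0.01.

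Per 1000 CPM of neuron markers, Kcnq3 had 10.1, 14.4 and 13.2 CPM with vehicle and 7.51, 8.43 and 7.43 with 10HDA. For Kcng1 the ratios were 4.31, 4.39 and 4.97 with vehicle and 3.38, 3.61 and 2.59 with 10HDA. Neither gene's treatments overlapped on this scale, nor did they per excitatory neuron marker (71.2 ± 12.9 against 41.7 ± 2.99 for Kcnq3). Per 1000 CPM of interneuron markers, Kcnq3 had 106, 157 and 177 with vehicle and 90.8, 87.2 and 113 with 10HDA, which overlapped. On that scale Kcng1 had 45.1, 48.1 and 66.7 with vehicle and 40.8, 37.4 and 39.3 with 10HDA, without overlap. The part of these cell type markers in the changes of Kcnq3 and Kcng1 was not tested further.

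**Figure D5:**
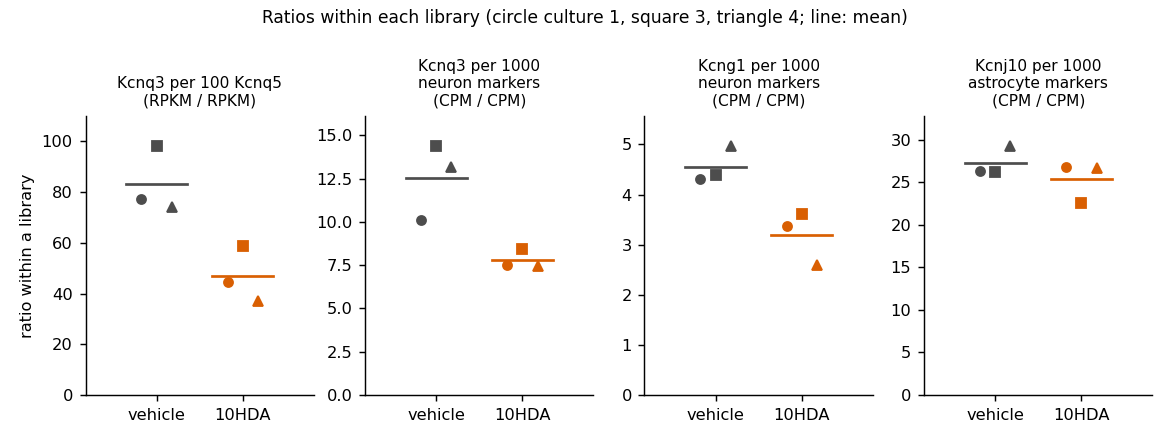
Ratios within each of the 6 libraries, with lines at the mean of 3 libraries. Kcnq3 per Kcnq5 (74.1 to 98.2 against 37.2 to 58.7) and Kcnq3 and Kcng1 per neuron marker do not overlap between treatments. Kcnj10 per astrocyte marker overlaps (26.2 to 29.2 against 22.5 to 26.7). Of ratios not drawn, Kcnq3 per interneuron marker overlaps and Kcnj10 per neuron marker does not.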

How the data were processed

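RNA of 6 libraries was compared, 3 with vehicle and 3 with 10HDA. The authors aligned untrimmed reads of 50 bases to mm10 with Subjunc (Subread 1.4.4) and assigned them to Gencode gene models with featureCounts. The values they deposited are raw counts, with gene lengths in bases beside them (a unit of another kind, used only for RPKM). The library kit kept strand, but the strand setting of the counting is not given in the sources used here. Symbols, coordinates and transcripts are from GENCODE M21 (GRCm38), which matched 42462 of 43346 identifiers.

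A limit of 1 CPM in 3 or more libraries left 15311 genes, whereas the authors required 10 CPM. After TMM scaling, treatments were compared in edgeR 4.0.16 under R 4.3.3 (glmQLFit and glmQLFTest, no culture term, Benjamini-Hochberg threshold 0.1). The methods of the study name edgeR, TMM and this threshold, and state neither the test nor the model terms. Standard errors are the fold change over the root of F. The labels place 1 library of each treatment in each culture, so culture pairs the libraries. As a check, deviations from treatment means correlated across genes at 0.249, 0.22 and 0.453 within cultures 1, 3 and 4, and at -0.317 to 0.0874 between cultures. The block lowered the biological coefficient of variation from 0.121 to 0.0866.

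The channel genes, the other gene lists and the tests were chosen with earlier results of these data known. Genes were named if past the threshold with or without the block, if at an unadjusted p under 0.05, if most abundant per length in a subfamily, if in the Kcnq subfamily, or if next to the limit of 1 CPM. Some genes and sequences that meet these rules are not reported here. Other genes given with values were chosen after their values were seen. Alternatives were other filters, scalings and tests (DESeq2 1.42.0, limma 3.58.1), the block, and each library or culture left out. The scripts were tested on simulated data. No exact permutation test is given, since with 3 libraries per treatment its p cannot go below 0.1. Limits from counts cover counting error only.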

Additional observations from a re-analysis of the deposited data

How the results depend on the processing

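The median log2 fold change of the potassium channel genes stayed below 0 in all alternatives run, from -0.19 to -0.04, with a range of -0.16 to -0.04 when single libraries were left out. The number of genes past the threshold was less stable. Over all genes it was 78, and 636 without the CPM filter, 180 with DESeq2, 1148 with culture as a replicate block, 997 with the block and without culture 1, 30 at a threshold of 0.05, and 0 without culture 1 or without culture 3 (1043 and 1069 at an unadjusted p under 0.05 in edgeR). Leaving out single libraries gave 0 (10HDA library of culture 1, 793 at an unadjusted p under 0.05 in edgeR) to 573 (10HDA library of culture 4), with 10 without the vehicle library of culture 3 or of culture 4. With library size alone 30 of 58 calls were higher (51.7%), against 35.9% of 78.

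Of the 67 potassium channel genes tested, 2 passed (2.99%, against 0.509% of all genes). Without the CPM filter 9 of 89 did (10.1%, against 2.37% of 26859 genes). With DESeq2 4 passed (5.97% against 1.18%), and with library size alone 1 (1.49% against 0.379%). The replicate block gave 12 with or without culture 1 (17.9%, against 7.5% and 6.51%). At a threshold of 0.05, 1 passed (1.49% against 0.196%), and without culture 4 also 1 (1.49% against 0.49%). Without culture 1 or 3, 0 passed (11 and 7 at an unadjusted p under 0.05 in edgeR). Single libraries left out gave 0 (vehicle of culture 3 or 4, 10HDA of culture 1) to 5 (10HDA of culture 4, 7.46%, against 3.74% of all genes). The cause of these shifts was not tested.

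Fold changes of 8 named genes close to 0 changed sign, and none of them was called. With library size alone these were Kcna6 (0.0393), Kcnd3 (0.0083), Kcnn1 (0.0119), Kcnt1 (0.0295) and Kcnq5 (0.0369). Without culture 1 they were Kcna6 (0.00066, and 0.00042 with the replicate block) and Kcnu1 (-0.0151, and -0.0128 with the replicate block). Without culture 3 they were Kcnd3 (0.0059), Kcnmb4 (-0.118), Kcnq5 (0.0724) and Kcnk13 (-0.0060), and without culture 4 Kcnn1 (0.0338) and Kcnt1 (0.0255). With single libraries left out, the log2 fold change ran from -0.147 to 0.0017 for Kcnd3, -0.135 to 0.141 for Kcnmb4, -0.146 to 0.0177 for Kcnn1, -0.075 to 0.0113 for Kcnt1, -0.0656 to 0.123 for Kcnu1, -0.217 to 0.134 for Kcnq5 and -0.106 to 0.231 for Kcnk13.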
